A study of Mus musculus with 31 samples.

Results

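The genes described here are 36 genes of DNA replication and S phase, out of 18194 genes that had a probe set of their own on the arrays. They came from a list of 37 genes: the MCM helicase, the proteins that load and start it, the polymerases and primase, the sliding clamp and its loader, the enzymes that join Okazaki fragments, the suppliers of nucleotides, histones and new chromatin, and the G1/S regulators. Chaf1a, the remaining gene of the list, was not analysed here. Where a gene had several single-symbol probe sets, the brightest on average across the 31 arrays stood for it. The study set neurosphere cultures of mouse medulloblastoma, called cancer stem cells in the labels, beside neural stem cell (NSC) cultures and beside tumour tissue. All samples were of the C57BL/6 strain. The NSC came from the subventricular zone, the cerebellar white matter and the IV ventricle region of mice at postnatal day 7, with 3 biological replicates of each. The tumour cultures were 8 lines of Ptch het p53 wt mice, each with a matched piece of its tumour, and cultures of 2 tumours of Ptch het p53 het mice, tumour 27 and tumour B, with 3 technical replicate arrays each. The ages of the tumour mice were not used here. All cultures grew in EGF and FGF2 and were collected a few days after plating, and the tissue was bulk tumour without culture.

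Replication starts when the origin recognition complex, Cdc6 and Cdt1 load the ring of Mcm2 to Mcm7 onto DNA in G1, and Cdc45 and the GINS proteins turn the ring into a working helicase at the start of S phase. Polymerase alpha with its primase lays down primers, the Rfc loader places the Pcna clamp, and ribonucleotide reductase (Rrm1 and Rrm2) supplies the deoxynucleotides. Most of these genes are transcribed in each cell cycle through E2F factors, which cyclin E and the retinoblastoma proteins control. Mice with a mutant Ptch allele develop medulloblastoma from the granule neuron progenitors of the cerebellum, in which Hedgehog signalling drives division, and p53 halts the cycle before S phase when DNA is damaged.

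The promoter letters of 4 of the genes are shown because an E2F site is what the rule of the list left unused, and because these genes carry results below. The windows are from RefSeq on GRCm38.p6, read on the gene's own strand from 5′ to 3′, and capitals mark the E2F letters TTTCGCGC or TTTGGCGC on either strand, including places where both forms overlap. They lie at chr1:128359745-128359865 on the minus strand for Mcm6, chr17:56304078-56304197 on the plus strand for Uhrf1, chr5:151651209-151651268 on the minus strand for Rfc3 and chr8:75109306-75109425 on the plus strand for Mcm5. Mcm5 was added after its values were seen.
Mcm6: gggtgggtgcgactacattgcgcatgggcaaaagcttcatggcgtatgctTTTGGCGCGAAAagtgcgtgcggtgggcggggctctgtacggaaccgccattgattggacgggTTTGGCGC
Uhrf1: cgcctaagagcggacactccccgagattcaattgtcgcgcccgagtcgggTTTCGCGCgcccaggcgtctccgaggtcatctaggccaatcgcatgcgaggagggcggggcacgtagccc
Rfc3: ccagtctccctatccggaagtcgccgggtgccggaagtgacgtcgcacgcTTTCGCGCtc
Mcm5: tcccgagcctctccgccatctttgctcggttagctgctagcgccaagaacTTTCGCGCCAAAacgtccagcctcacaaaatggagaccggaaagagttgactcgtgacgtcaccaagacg

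A window of 250 bases before the start was found for 28 of the 36 genes. The E2F letters lay in 5 of the 28 (17.9%: Mcm5, Mcm6, Pola1, Rfc3 and Uhrf1), against 0.8% of all 27025 genes with a window. Mcm6 and Mcm5 carry both forms overlapped, and the capitals of the Mcm5 run are the reverse complement of the first capitals of Mcm6. A second form, TTTCCCGC or TTTGCCGC on either strand, lay in 3 (10.7%: Mcm7, Cdc6 and Hells), against 1.4% of all genes with a window. The CCAAT box, CCAAT on either strand, was in 15 of the 28 (53.6%) and 37.5% of all genes with a window. The GC box, GGGCGG on either strand, was in 19 (67.9%) and 35.4%. These are matches of letters, not measured binding.

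Values are log2 expression levels after RMA, so a difference of 1 is a 2-fold change, and levels of different genes are not compared. The array medians ran from 3.17 to 3.32. The sample names carry 12 codes that look like dates, called date codes here. The sources used here do not say what these codes stand for. NSC share none with tumour cultures or tissue, and the p53 wt lines, tumour 27 and tumour B share none with each other. For comparisons across such groups the date code and the group cannot be told apart. P-values measure the spread between the samples, and the labels name the NSC replicates biological but do not say how many mice they came from. Ptch1 had a mean of 8.26 ± 0.23 (SD, n = 6) in hindbrain NSC, 6.63 ± 0.75 (SD, n = 8) in the p53 wt lines, 8.26 ± 0.42 (SD, n = 8) in tissue, 5.75 in tumour 27 and 7.58 in tumour B. The sources used here do not place this probe set against the mutated part of the gene, so the level does not check the genotype, and Trp53 was not analysed here. Summed linear levels of 9 granule neuron progenitor markers ran from 5444 to 7036 in tissue and from 2907 to 3547 in the lines, while those of 11 neural stem and radial glia markers ran from 2261 to 3887 in tissue and from 10845 to 15262 in the lines. Most of the first sum in the lines is Ccnd1, at a mean of 11.28. Gene by gene, 8 of the 9 were lower in the lines and Ccnd1 higher, with a median difference of -5.04. Of the 11, 8 were higher and 3 lower, with a median of 2.27.

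The first comparison asked whether medulloblastoma lines with intact p53 express the replication machinery differently from stem cells of the hindbrain, that is of the IV ventricle region and the cerebellar white matter. They hardly differed. Of the 36 genes, 1 was higher in the lines and 0 were lower (limma, adjusted p under 0.05), against 9.56% of all genes called in either direction (3.51% higher and 6.06% lower). The differences of the 36 ran from -0.4 to 0.33 with a median of 0.08, beside a median of 0.0 over all genes. Their median absolute difference was 0.15, beside 0.12 over all genes, so they did not move less than other genes. At an unadjusted p under 0.05, 3 of the 36 were higher and 3 lower.

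Pcna, the sliding clamp that tethers the polymerases, was the gene that rose. Its lowest, median and highest levels were 10.71, 10.88 and 11.06 in the 6 hindbrain NSC cultures and 11.06, 11.2 and 11.41 in the 8 lines. The groups met at 11.06 and otherwise lay apart. The difference was 0.32 (SE 0.08, limma adjusted p = 0.0188). It no longer passed when replicate 1 of the cerebellar NSC (limma adjusted p = 0.0556) or of the IV ventricle NSC (0.0534) was left out, with the date code as a random block (0.0765) or with only the 4 lines of either date code (0.0725 for each).

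Fen1, the nuclease that trims Okazaki fragments, had levels of 8.39, 8.52 and 8.67 (lowest, median, highest) in hindbrain NSC and 8.58, 8.73 and 9.09 in the lines, a difference of 0.24 (SE 0.08) that missed the threshold (limma adjusted p = 0.0917). Ccne1, cyclin E1, which drives entry into S phase, had levels of 6.35, 6.6 and 6.82 in hindbrain NSC and 5.64, 6.23 and 6.43 in the lines. The median line lay below the lowest NSC culture. The difference of -0.4 (SE 0.13, limma adjusted p = 0.064) missed the threshold, and it passed against the NSC of all 3 regions (-0.53, adjusted p = 0.00638), against subventricular zone NSC alone (-0.795, adjusted p = 0.00733) and without IV ventricle replicate 3, where 1 gene was then lower in the lines. The other Ccne1 probe set differed by -0.52, with all 8 lines (4.95 to 5.68) below all 6 hindbrain NSC cultures (5.7 to 6.05). Ccne1 also passed with all probe sets kept (limma adjusted p = 0.0254) and with the mean of its probe sets (-0.46, adjusted p = 0.032). By the probe sets used, no gene of the 36 had all 8 lines above, or all below, the 6 hindbrain NSC cultures. Among all genes, 0.934% and 2.52% did.

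Among the NSC themselves, 0 of the 36 genes differed between the 3 regions (limma moderated F test), against 0.819% of all genes, and the smallest adjusted p was 0.36, for Rrm2. At an unadjusted p under 0.05, 1 passed, Rrm2. Replicates varied as a set. IV ventricle replicate 2, the only array of its date code, had the highest level of the 9 NSC for 26 of the 36 genes, where it was highest for 14.7% of all genes, and IV ventricle replicate 3 was lowest for 17, against 10.3% of all genes. Among the lines, line 83 was highest for 17 (18.1% of all genes) and line 9 lowest for 15 (10.4%). The median SD of the 36 was 0.13 in NSC, 0.19 in lines and 0.23 in tissue, beside 0.16, 0.2 and 0.18 over all genes.

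**Figure D1:**
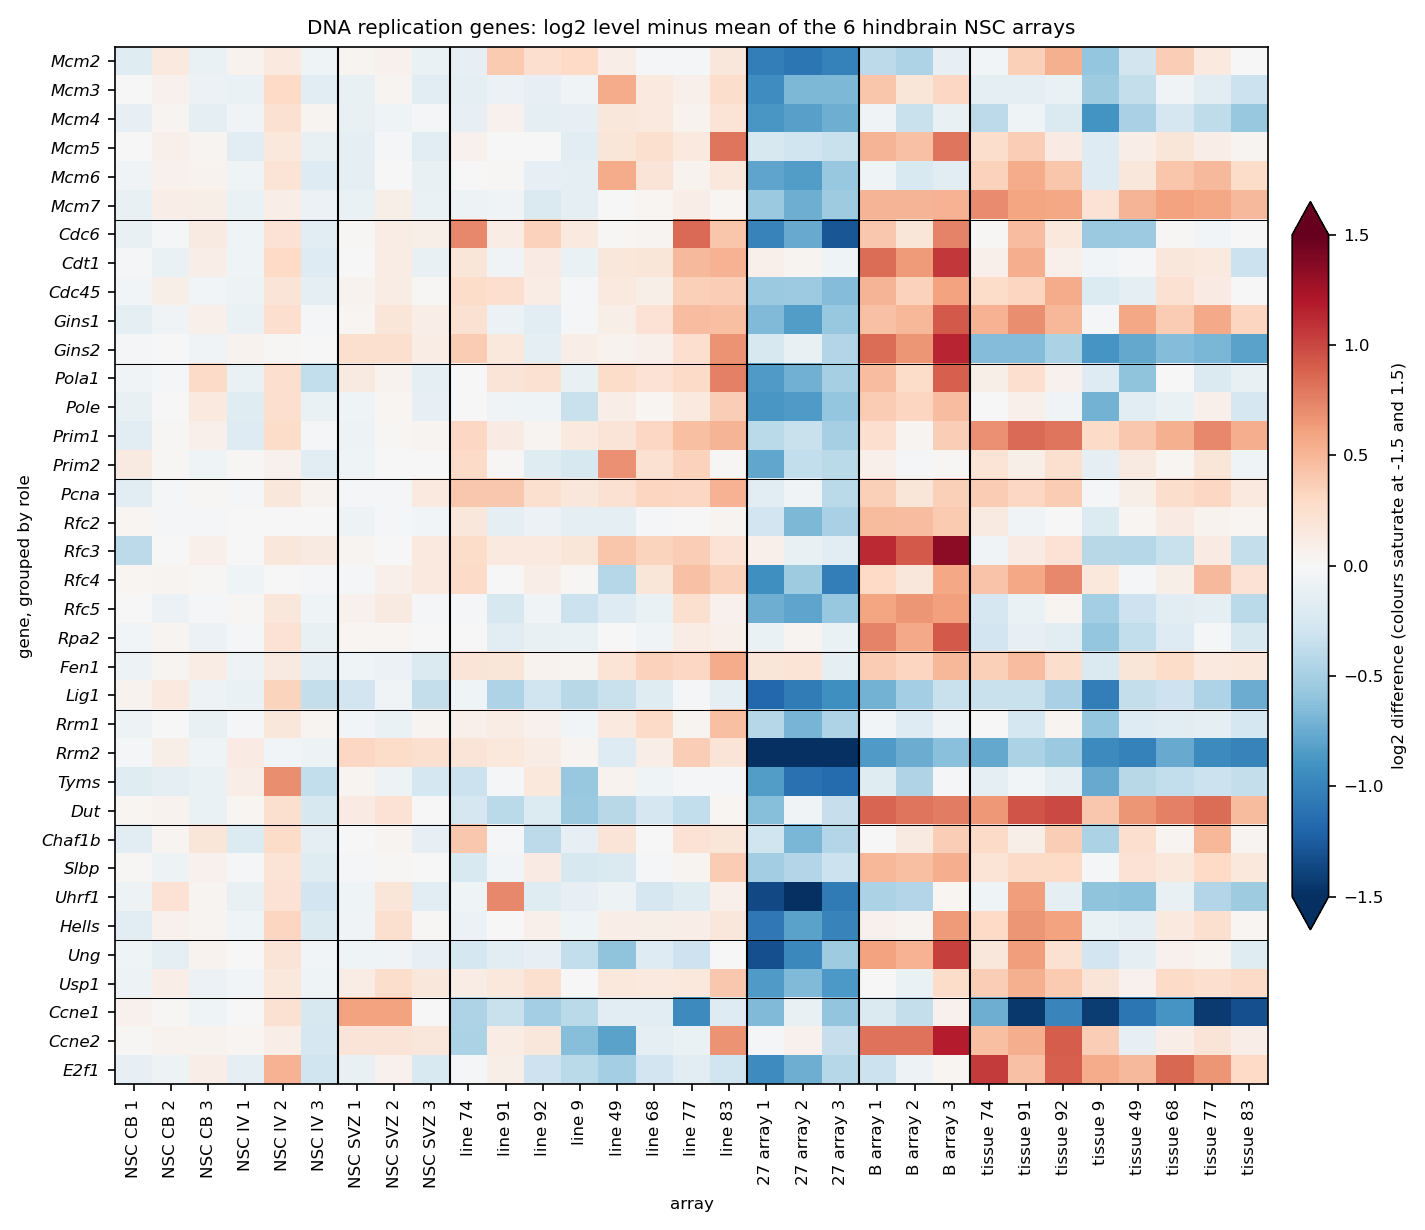
Log2 level of each of the 36 replication genes (rows, grouped by role) in each of the 31 arrays (columns) minus the mean of the 6 hindbrain NSC arrays, red above and blue below, with colours that saturate at -1.5 and 1.5. The 3 arrays of tumour 27 are blue for most genes, and IV ventricle replicate 2 is red for most genes among the NSC.

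The p53 het cultures were compared with the p53 wt lines and with hindbrain NSC, with each tumour counted as 1 sample. The spread came from a fit of all 19 cultures. The pooled p-values therefore mostly reflect the spread among NSC and lines, not that between the 2 tumours. Against the lines, 8 of the 36 genes were lower and 0 higher (limma; 13 lower and 2 higher at an unadjusted p under 0.05), where 26.3% of all genes were called (11.8% lower and 14.5% higher). Against hindbrain NSC 5 were lower and 0 higher (limma; 9 and 3 unadjusted), with 26.8% of all genes called, 13% lower and 13.8% higher. Called in either direction, the shares of 22.2% and 13.9% do not exceed those backgrounds. Counting lower genes alone, 22.2% stands above 11.8% of all genes, and 13.9% is close to 13%. With only the groups compared, Uhrf1 (limma adjusted p = 0.0678), Usp1 (0.0606) and Mcm6 (0.0784) no longer passed against the lines. Uhrf1 (0.0566) and Mcm4 (0.0807) no longer passed against hindbrain NSC. The pooled values rest on 2 tumours, which are also described apart.

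Tumour 27 lay below the lines almost throughout, and tumour B lay above them more often than below. The mean of tumour 27 was below the mean of the lines for 35 of the 36 genes (43.9% of all genes), with a median difference of -0.67 and a range from -2.93 (Rrm2) to 0.05 (Ccne2), beside a median of 0.05 over all genes. The mean of tumour B was above the lines for 24 (51.3% of all genes) and below for 12, with a median of 0.22 and a range from -0.86 (Rrm2) to 1.12 (Dut), beside a median of 0.01. Set against each other, tumour B was above tumour 27 for all 36 genes, by 0.28 (Ccne1) to 2.07 (Rrm2) with a median of 0.92, where the median over all genes was -0.04.

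The 3 arrays of a tumour are technical replicates, so their spread holds no variation between mice. All 3 arrays of tumour B lay above all 3 of tumour 27 for 35 of the 36 genes (19.5% of all genes), with Ccne1 the exception, and below them for 0 (20.8%). The mean of tumour 27 lay below all 8 lines for 30 of the 36 (19.6% of all genes) and above all of them for 0 (24.2%). The mean of tumour B lay above all 8 lines for 15 (22.4%) and below all 8 for 7 (19.9%). For 11 genes tumour 27 lay below and tumour B above all 8 lines (1.42% of all genes): Mcm7, Cdc45, Gins1, Gins2, Pole, Rfc2, Rfc3, Rfc5, Slbp, Hells and Ung. For 7 genes both lay below all 8 lines (11.4% of all genes): Mcm2, Mcm4, Mcm6, Lig1, Rrm1, Rrm2 and Uhrf1. Both lay above all 8 lines for 0 genes (13.5%). Counting single arrays, all 3 of tumour 27 lay below all 17 NSC and line arrays for 24 genes (10.8% of all genes) and above them for 0 (11.4%). All 3 of tumour B lay above the 17 for 10 genes (12.8%: Mcm7, Cdt1, Rfc2, Rfc3, Rfc5, Rpa2, Dut, Slbp, Ung and Ccne2) and below them for Rrm2 alone (10.7%).

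**Figure D2:**
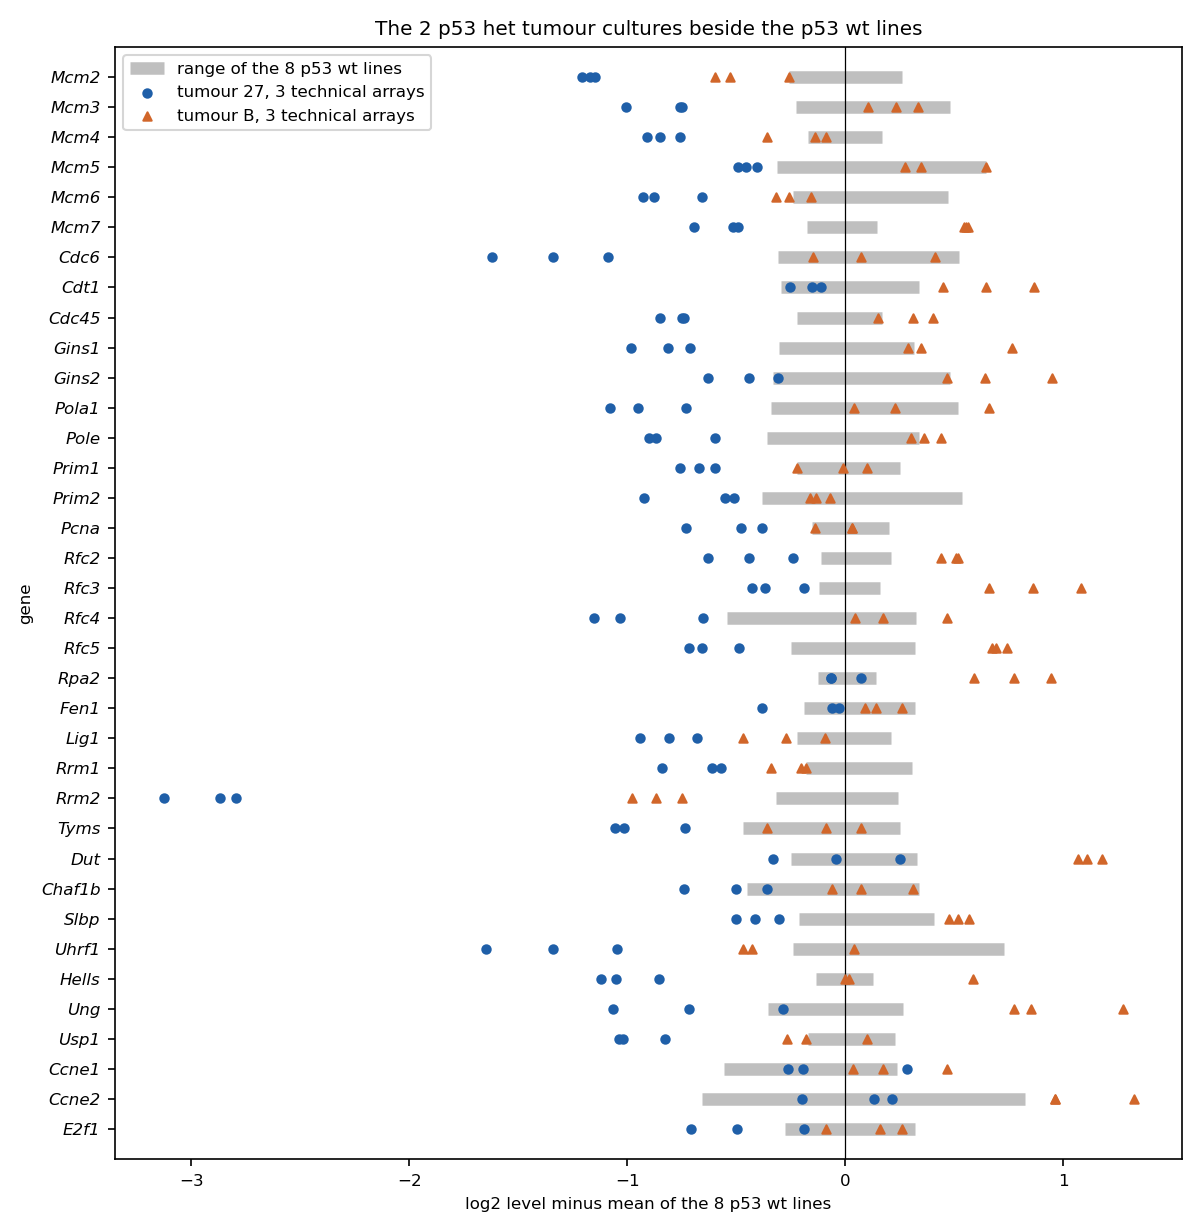
Log2 level minus the mean of the 8 p53 wt lines (horizontal axis) for each of the 36 genes, with grey bars for the range of the lines, circles for the 3 technical arrays of tumour 27 and triangles for those of tumour B. All triangles lie to the right of all circles for 35 of the 36 genes.

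Rrm2, the small subunit of ribonucleotide reductase and the rate-limiting supplier of deoxynucleotides in S phase, differed most. Its levels were 9.9 to 10.1 in the hindbrain NSC and 9.78, 10.11 and 10.34 (lowest, median, highest) in the lines. The 3 arrays of tumour 27 gave 7.3, 6.97 and 7.23, and those of tumour B gave 9.12, 9.23 and 9.35. Both tumours lay below every NSC and line culture, tumour 27 by far the most. The pooled difference was -1.9 against the lines (SE 0.3, limma adjusted p = 0.000144) and -1.78 against hindbrain NSC (SE 0.31, adjusted p = 0.000343). The other 2 probe sets of Rrm2 gave differences from the lines of -3.89 and -3.67 in tumour 27 and -1.13 and -1.42 in tumour B. Rrm1, the large subunit, fell by 0.46 (adjusted p = 0.0094).

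In the MCM ring, 3 of 6 subunits fell against the lines. Mcm2 gave 7.43, 7.39 and 7.45 in tumour 27 and 8.07, 8.0 and 8.34 in tumour B, with the lines at 8.34, 8.6 and 8.86 (lowest, median, highest). Tumour 27 lay far below all lines, and the highest array of tumour B met the lowest line. The difference was -0.82 (SE 0.16, limma adjusted p = 0.00085). Mcm6, whose promoter is shown above, gave 8.54, 8.49 and 8.76 in tumour 27, 9.26, 9.1 and 9.16 in tumour B, and 9.18, 9.37 and 9.89 in the lines. Tumour B overlapped the lines here. The difference was -0.53 (SE 0.16, adjusted p = 0.0212), and Mcm4 fell by 0.52 (adjusted p = 0.00897). The ring member Mcm7 gave 9.73, 9.55 and 9.75 in tumour 27, 10.8, 10.79 and 10.81 in tumour B, and 10.07, 10.25 and 10.39 in the lines. Its tumours lay on opposite sides of the lines with no overlap.

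Uhrf1, which keeps DNA methylation on the new strand, gave 7.41, 7.1 and 7.7 in tumour 27 and 8.28, 8.32 and 8.79 in tumour B, against 8.51, 8.66 and 9.48 (lowest, median, highest) in the lines. Only tumour 27 lay wholly below the lines. The difference was -0.81 (SE 0.24, limma adjusted p = 0.018), and -0.82 against hindbrain NSC (SE 0.25, adjusted p = 0.0199). Lig1, the ligase that seals Okazaki fragments, gave 7.39, 7.52 and 7.65 in tumour 27, 7.86, 8.06 and 8.24 in tumour B and 8.11, 8.33 and 8.54 in the lines. It fell by 0.54 against the lines (SE 0.17, adjusted p = 0.0205) and by 0.78 against hindbrain NSC (SE 0.17, adjusted p = 0.00216). Usp1, a deubiquitylase that acts on ubiquitin-marked Pcna, gave 8.41, 8.6 and 8.39 in tumour 27, 9.25, 9.16 and 9.53 in tumour B and 9.26, 9.41 and 9.66 in the lines. It fell by 0.54 (SE 0.15, adjusted p = 0.013), with arrays of tumour B inside the range of the lines. Against hindbrain NSC, Mcm2 fell by 0.69 (SE 0.16, adjusted p = 0.00399) and Mcm4 by 0.49 (SE 0.14, adjusted p = 0.0155).

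Other replication genes were high in tumour B and not in tumour 27. Dut, the enzyme that keeps uracil out of DNA, gave 8.63, 8.56 and 8.52 in tumour B, 7.12, 7.7 and 7.41 in tumour 27 and 7.2, 7.44 and 7.78 (lowest, median, highest) in the lines. Gins2, part of the active helicase, gave 7.64, 7.47 and 7.95 in tumour B, 6.56, 6.69 and 6.37 in tumour 27, and 6.67, 6.93 and 7.48 in the lines. Rfc3, a clamp loader subunit whose promoter is shown above, gave 7.98, 7.78 and 8.2 in tumour B, 6.93, 6.75 and 6.69 in tumour 27, and 7.0, 7.1 and 7.28 in the lines. For Dut and Rfc3 the tumour B arrays lay above all lines, and for Gins2 the lowest of them met the highest line. Dut, Gins2 and Rfc3 did not pass the pooled test.

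Leaving out a tumour changed the counts. With tumour 27 as the only p53 het sample, 23 of the 36 genes were lower than in the lines and 0 higher (limma; 9.43% and 10.5% of all genes; 28 and 0 unadjusted), and 20 were lower than in hindbrain NSC and 0 higher (10.5% and 10.6%; 25 and 0 unadjusted). With tumour B as the only one, 10 genes were higher (Ccne2, Cdt1, Dut, Gins2, Mcm7, Rfc2, Rfc3, Rfc5, Rpa2 and Ung) and 1, Rrm2, lower than in the lines (11.6% and 8.13% of all genes), and against hindbrain NSC 11 were higher and 1 lower (11.5% and 9.29%). These limma fits assume that a lone tumour varies as the other cultures do. Leaving out line 83 added 1 higher gene, Dut, to the pooled comparison with the lines. Rrm2 was the gene called lower whichever tumour was left out.

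Markers of cell type also moved with the p53 het cultures. Summed levels of the 11 neural stem and radial glia markers were 6103 to 6439 in tumour 27 and 4644 to 5006 in tumour B, below every line (10845 to 15262), with 8 of the 11 lower and 0 higher in the pooled comparison. The 8 oligodendrocyte markers summed to 2896 to 3074 in tumour 27, 1635 to 1962 in tumour B and 1014 to 1834 in the lines. In the pooled comparison 3 were higher, Mbp, Sox10 and Cldn11, and 1, Olig2, was lower. In tumours 27 and B, Sox10 stood 6.3 and 5.36 above the lines on the log2 scale, and Cldn11 3.78 and 6.02 above. Olig2 stood at -1.44 and -1.56 from the lines. The 9 granule neuron progenitor markers summed to 1171 to 1236 in tumour 27 and 849 to 1185 in tumour B, below every line (2907 to 3547). In the pooled comparison 1 of the 9, Ccnd1, which makes up most of these sums, was lower and 0 were higher. The 10 postmitotic neuron markers summed to 468 to 648 in tumour 27 and 398 to 461 in tumour B, also below every line (865 to 1378). Of the 10, 2 were lower, Syt1 and Map2, and 1 higher, Tubb3, and Map2 makes up most of these sums. The 7 astrocyte markers, of which 1 was lower and 1 higher, summed to 4307 to 4903 in tumour 27, 1973 to 2440 in tumour B and 1926 to 4824 in the lines. On the log2 scale the higher one, S100b, stood 2.9 and 1.36 above the lines in tumours 27 and B. The lower one, Slc1a2, stood at -2.75 and -4.07 from the lines. Gja1 (0.11 and -6.17) and Gfap (1.78 and -0.62) differed between the tumours and were not called. The 11 endothelial and mural markers summed to 400 to 500 in tumour B, 57 to 74 in tumour 27 and 45 to 60 in the lines. That sum was carried by the collagens Col1a1 and Col3a1, which lay 4.19 and 7.01 above the lines in tumour B, while the other 9 markers lay between -0.19 and 0.09 of the lines and were not called. The 10 microglia and macrophage markers, with sums of 41 to 50 in tumour 27 and 42 to 48 in tumour B, stayed within the range of the lines (39 to 52). The part of cell type in the replication genes was not tested.

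Probe sets of 1 gene gave the same sign of difference from the lines for all 24 replication genes with several probe sets above a level of 4 in tumour 27, and for all but 6 of the 24 in tumour B. The 6 were Cdc45, Prim1, Prim2, Fen1, Hells and Usp1.

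The position of the genes was examined after these values had been seen, because several of the genes high in tumour B lie on chromosome 5. Over genes with a mean level above 3.5, the 690 other genes of chromosome 5 had a median difference of 0.38 between tumour B and the lines, and 55.5% of them lay above all 8 lines. The 586 other genes of chromosome 8 had a median of 0.3 in tumour B and 0.33 in tumour 27. The 372 other genes of chromosome 12 had a median of -0.68 in tumour 27, with 69.1% of them below all 8 lines. Gene copy number was not measured, and its part in these values was not tested.

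Chromosome 5 holds 8 of the 36 replication genes: Mcm7, Pole, Rfc2, Rfc3, Rfc5, Tyms, Slbp and Ung. In tumour B, 7 of these 8 lay above all 8 lines, out of 15 replication genes that did, and their median difference was 0.54. The 3 replication genes of chromosome 8, Mcm5, Cdt1 and Gins2, had a median of 0.66 in tumour B. The 25 on other chromosomes had a median of 0.11, with 14 above and 11 below the lines. They include Pola1 (0.31) on chromosome X, whose 347 other genes had a median of 0.35 in tumour B. In tumour 27 all 3 sets lay below the lines: the median was -0.6 on chromosome 5 (8 of 8 below the lines), -0.45 on chromosome 8 (3 of 3 below) and -0.81 on the others (24 of 25 below).

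**Figure D3:**
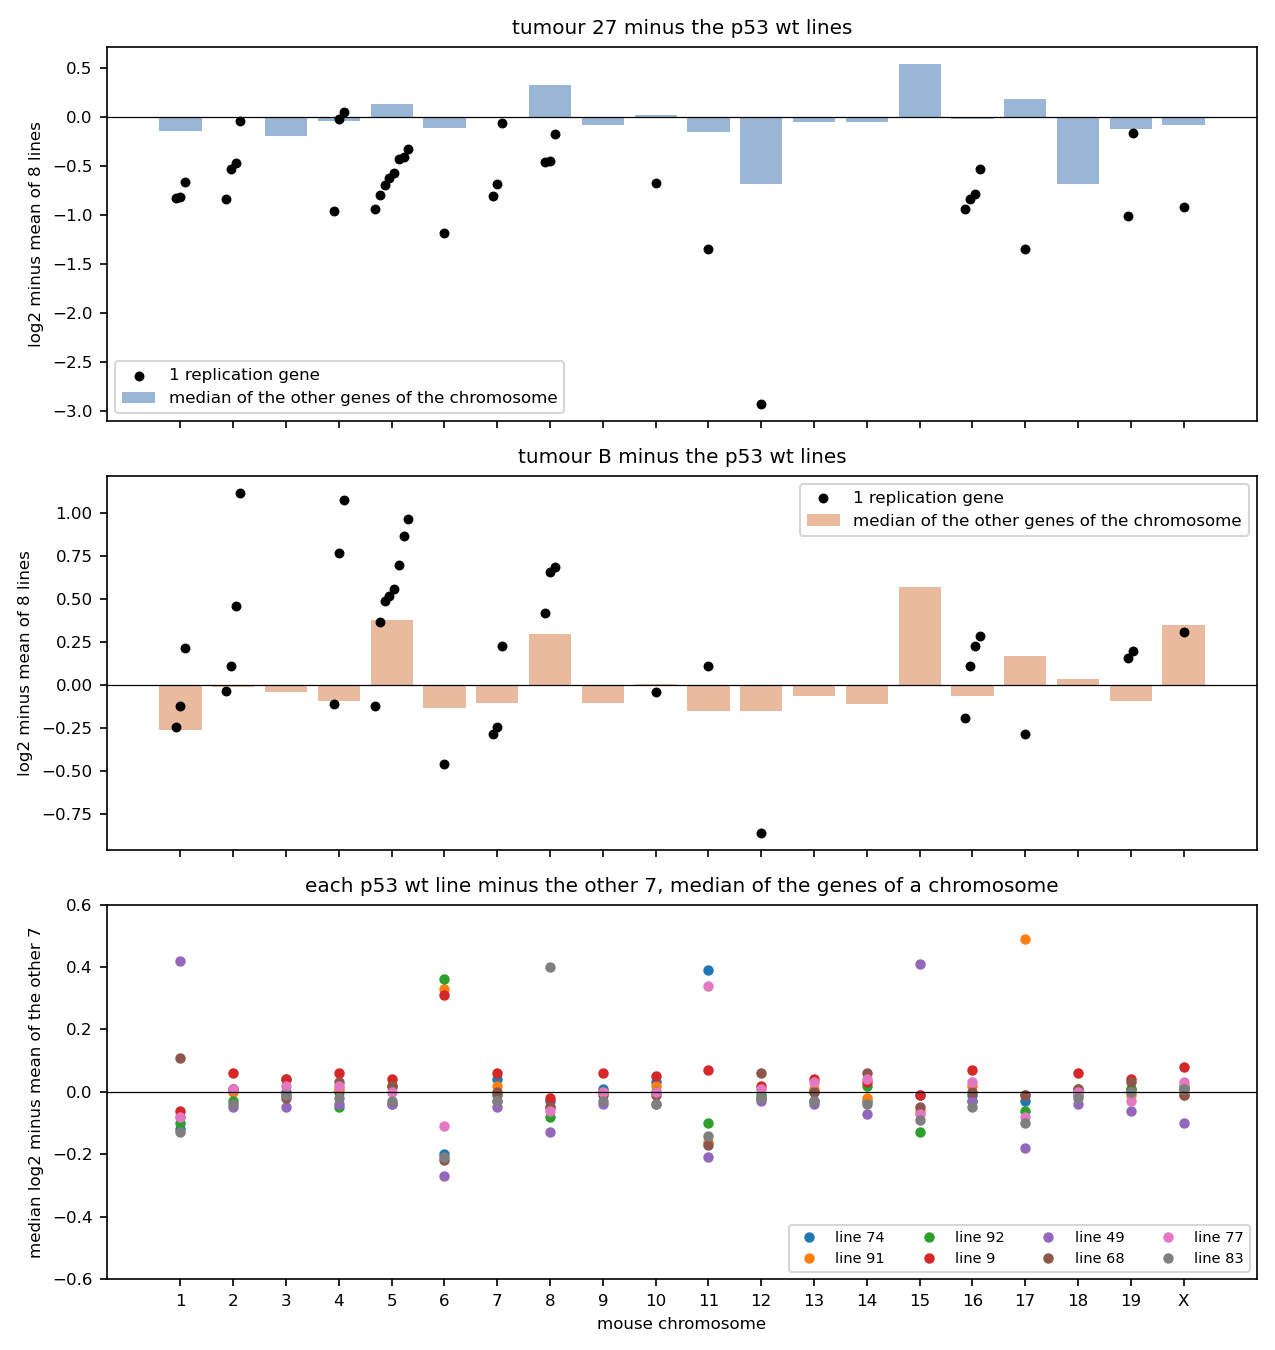
Log2 difference from the lines by mouse chromosome for tumour 27 (top) and tumour B (middle), with bars for the median of a chromosome's other genes and a point for each replication gene, and the median difference of each line from the other 7 lines (bottom). In tumour B, 7 of the 8 replication genes on chromosome 5 lie above 0, over a chromosome median of 0.38.

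Taking each gene's chromosome median away left most of the pattern of tumour 27. Its replication genes then had a median of -0.73, with 34 below and 2 above 0 and a range from -2.25 to 0.09. Tumour B had a median of 0.15, with 24 above and 12 below, from -0.71 to 1.17. Rrm2 lies on chromosome 12, and its difference of -2.93 in tumour 27 became -2.25, while its -0.86 in tumour B became -0.71. In the pooled comparison with the lines, the adjusted values gave 1 higher (Rpa2) and 8 lower genes, where 15.8% of all genes were then higher and 13.8% lower, and 7 of the 8 lower genes were called before. Mcm6 lost its call (-0.324, limma adjusted p = 0.096), and Tyms gained a call.

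Single lines also showed chromosome-wide offsets. Among 160 combinations of line and chromosome, 9 had a median difference of at least 0.3 from the other 7 lines and 0 had one of -0.3 or less. The 9 combinations held 12 pairs of a line and a replication gene. All 12 were above the mean of the other 7 lines, and 9 were the highest of the 8. Of the other genes on these chromosomes, 82.9% to 90% were likewise above the mean of the other lines, and 19.8% (chromosome 6 in line 9) to 73.3% (chromosome 17 in line 91) were highest. Line 83 gave 3 of the 9, and it was highest for 14 of the 33 replication genes on other chromosomes too.

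In line 49, chromosome 1 had a median difference of 0.42 over 594 genes, and 63.3% of them were highest of the 8 lines in it. Mcm6 (9.89, 0.54 above the mean of the other 7), Mcm3 (8.99, 0.55 above) and Prim2, the large primase subunit (7.57, 0.61 above), lie there and peaked in that line. In line 83, chromosome 8 had a median difference of 0.4, with 61.1% of 586 genes highest. Its genes Mcm5 (9.93, 0.74 above), Gins2 (7.48, 0.55 above) and the licensing factor Cdt1 (8.7, 0.39 above) were high in line 83. In line 91, chromosome 17 had a median difference of 0.49, with 73.3% of 514 genes highest, and Uhrf1 (9.48, 0.83 above) was highest there. Tissue 91 had a median of 0.39 on chromosome 17, with 67.4% of its genes highest of the 8 tissues and Uhrf1 at 9.38. The licensing factor Cdc6, on chromosome 11, stood at 7.42 in line 77 and 7.29 in line 74, 0.59 and 0.44 above the other lines. Mcm2, on chromosome 6, stood 0.3, 0.19 and 0.14 above the other lines in lines 91, 9 and 92, where the chromosome medians were 0.33, 0.31 and 0.36. In the matched tissues the offset was present in some cases and not in others. The median was 0.21 and 0.24 on chromosome 6 in tissues 91 and 92, but -0.17 in tissue 9, -0.02 on chromosome 1 in tissue 49, -0.02 on chromosome 8 in tissue 83, and 0.0 and 0.02 on chromosome 11 in tissues 74 and 77.

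The next comparison set each p53 wt line beside the tumour it came from. Replication genes moved in both directions. Of the 36, 11 were higher in the lines and 8 lower (limma with the tumour as a block), 52.8% in all, against 49.6% of all genes (26.6% higher and 23.1% lower). The share is close to the background, so the number called is not a result about these genes. The median difference was 0.06 for the 36 and 0.06 over all genes. With arrays centred on their medians the split was 12 higher and 4 lower, where 30.3% of all genes were higher and 20.2% lower. With arrays centred on their 75th percentile it was 7 and 8, where all genes gave 22.6% and 25%. In bulk tissue, fewer cells of a type and less RNA per cell cannot be told apart.

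**Figure D4:**
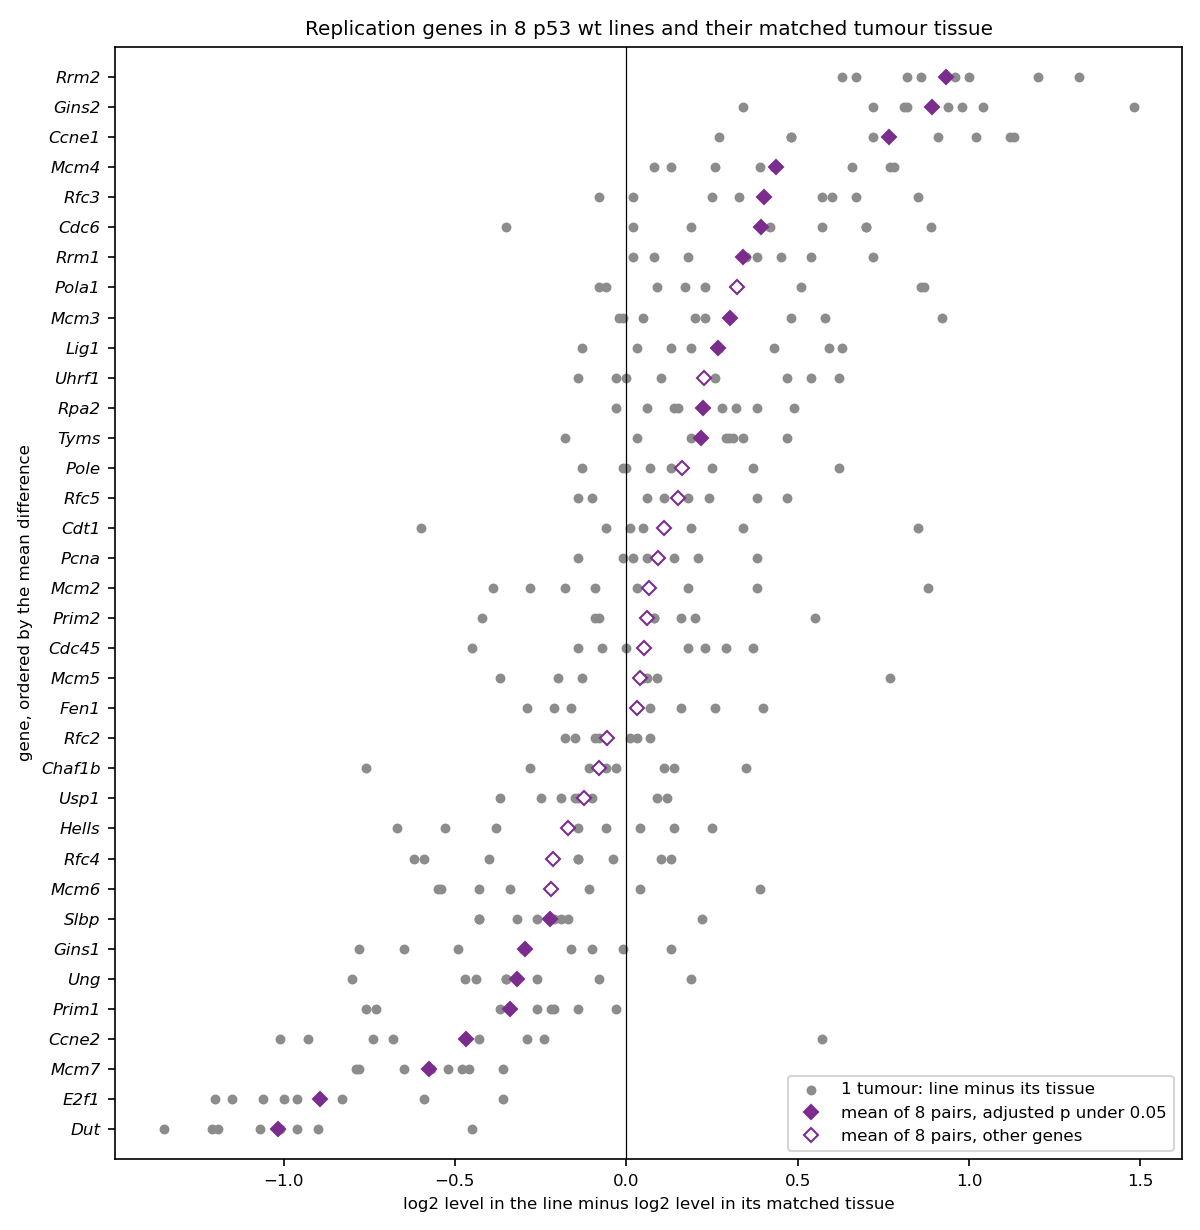
Log2 level in a line minus that in its matched tissue for the 36 genes, with a grey point for each of the 8 tumours and a diamond for the mean, filled where the limma adjusted p is under 0.05. The 11 filled diamonds on the right and 8 on the left run from 0.93 for Rrm2 to -1.02 for Dut.

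The genes higher in culture included Rrm2, Gins2 and Ccne1. Rrm2 had levels of 8.96, 9.12 and 9.5 (lowest, median, highest) in tissue and 9.78, 10.11 and 10.34 in the lines. All lines lay above all tissues, and the difference was 0.93 (SE 0.09, limma adjusted p = 9.77e-06). Gins2 had 5.92, 6.13 and 6.33 in tissue and 6.67, 6.93 and 7.48 in the lines, with no overlap and a difference of 0.89 (SE 0.11, adjusted p = 6.21e-05). Ccne1 had 5.14, 5.39 and 5.86 in tissue and 5.64, 6.23 and 6.43 in the lines. Its groups overlapped, while each line lay above its own tissue, by 0.27 to 1.13, and the difference was 0.77 (SE 0.11, adjusted p = 0.000197).

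Mcm4 had 8.07, 8.58 and 8.9 in tissue and 8.83, 9.02 and 9.17 in the lines (difference 0.44, SE 0.09, limma adjusted p = 0.00315), and each line was above its tissue. Rfc3 had 6.43, 6.66 and 7.08 in tissue and 7.0, 7.1 and 7.28 in the lines (0.4, SE 0.11, adjusted p = 0.0105). Cdc6 had 6.01, 6.57 and 7.03 in tissue and 6.59, 6.81 and 7.42 in the lines (0.39, SE 0.13, adjusted p = 0.0311). The groups of all 3 overlapped. In the 4 pairs that share a date code, Mcm4 (adjusted p = 0.128), Rfc3 (0.262) and Cdc6 (0.269) did not pass, and in the other 4 pairs Cdc6 did not (0.067). Mcm3, Rpa2, Lig1, Rrm1 and Tyms, the maker of thymidylate, were also higher in the lines.

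The genes lower in culture included Dut, E2f1 and Mcm7. Dut had 8.16, 8.46 and 8.74 in tissue and 7.2, 7.44 and 7.78 in the lines, with no overlap and a difference of -1.02 (SE 0.09, limma adjusted p = 9.98e-06). The other Dut probe set, with a mean level of 4.88 beside 7.92, differed by only -0.09 between lines and tissue. E2f1, a transcription factor that switches on S-phase genes, had 5.94, 6.25 and 6.69 in tissue and 5.13, 5.35 and 5.73 in the lines, again with no overlap (-0.89, SE 0.1, adjusted p = 3.26e-05). Mcm7 had 10.5, 10.87 and 10.99 in tissue and 10.07, 10.25 and 10.39 in the lines (-0.58, SE 0.07, adjusted p = 4.4e-05), and the groups did not overlap. Within the MCM ring, then, Mcm7 was lower and Mcm3 and Mcm4 higher in the same lines, while Mcm2, Mcm5 and Mcm6 did not pass. Ccne2, cyclin E2, had 5.76, 6.17 and 6.79 in tissue and 5.08, 5.77 and 6.56 in the lines, overlapping widely (-0.47, SE 0.16, adjusted p = 0.0307). Its difference was -0.16 (adjusted p = 0.608) in the 4 pairs of different date codes, and it lost its call without the pair of tumour 74, 91, 92, 9 or 49. Without the block, 11 were higher and 7 lower, with Ccne2 at an adjusted p of 0.0503. Prim1, Ung, Gins1 and Slbp were also lower in the lines.

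Rrm2, Gins2 and Ccne1 (higher) and Dut, E2f1 and Mcm7 (lower) kept their calls under every alternative except a required difference of at least 1, under which only Dut passed. With all probe sets kept, each gene was read from its probe set with the smallest adjusted p. A disagreeing probe set, such as that of Dut, could not remove a call there. Pair by pair, all 8 lines lay above their own tissue for 5 of the 36 genes (Mcm4, Gins2, Rrm1, Rrm2 and Ccne1), where 19% of all genes did, and below it for 4 (Mcm7, Prim1, Dut and E2f1), where 17.1% did. Groups without overlap numbered 2 above (11.6% of all genes) and 3 below (11.3%). Leaving out the pair of tumour 9, 49, 77 or 83 left 6, 7, 7 or 6 higher genes, and leaving out the pair of tumour 74, 91 or 92 left 5 lower genes each. Mcm3, Cdc6, Rpa2, Lig1 and Tyms were the higher genes lost in these fits, and Gins1, Slbp and Ccne2 the lower ones. Among the tissues, tissue 9 was lowest for 25 of the 36 genes (16.9% of all genes) and tissue 91 highest for 15 (14.3%).

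Markers of several other cell types were higher in tissue, while the astrocyte and oligodendrocyte lists were mixed. The 10 microglia and macrophage markers summed to 773 to 1934 in tissue and 39 to 52 in the lines, and the 10 postmitotic neuron markers to 5597 to 8617 in tissue and 865 to 1378 in the lines, with 8 of the 10 lower in the lines and 0 higher. The 11 endothelial and mural markers summed to 248 to 391 in tissue and 45 to 60 in the lines. All 9 granule neuron progenitor markers differed, 8 of them lower in the lines and Ccnd1 higher. The 8 oligodendrocyte markers summed to 311 to 1109 in tissue and 1014 to 1834 in the lines, with 4 lower in the lines and 1, Olig2, higher. The 7 astrocyte markers summed to 836 to 3824 in tissue and 1926 to 4824 in the lines, with 4 lower and 1, Aldoc, higher. Only 3 of the 7 blood markers listed were analysed, and 0 differed. They summed to 8 to 11 in tissue and 9 to 11 in the lines, levels too low to say much about blood content. The part of cell composition in the replication genes was not tested.

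Tissue was also set beside hindbrain NSC, which shares the tissue arrays with the comparison above and the NSC arrays with the first. Here 11 of the 36 genes were higher in tissue and 8 lower (52.8%), against 52.4% of all genes (23.7% higher and 28.7% lower), again close to the background. With arrays centred on their medians the split was 8 and 8, where 22.3% of all genes were higher and 30.1% lower. With arrays centred on their 75th percentile it was 12 and 5, where all genes gave 27.1% and 23.6%. The median was 0.07, beside -0.06 over all genes. Cell type markers moved in the same comparison. All 10 microglia and macrophage markers were higher in tissue (median 4.07), as were 8 of 10 postmitotic neuron markers (5.35), 8 of 9 granule neuron progenitor markers (5.21) and 10 of 11 endothelial and mural markers (0.87), while 7 of 11 neural stem and radial glia markers were lower and 2 higher. In hindbrain NSC the microglia and macrophage markers summed to 42 to 45, the postmitotic neuron markers to 930 to 1163 and the neural stem and radial glia markers to 10563 to 13227. Of 7 astrocyte markers 4 were higher in tissue and 3 lower, and of 8 oligodendrocyte markers 5 were higher and 2 lower. The 3 blood markers, which summed to only 9 to 11 in hindbrain NSC, had 0 higher and 1 lower. The part of cell composition in this comparison was not tested.

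Dut, at 7.51, 7.78 and 7.99 (lowest, median, highest) in hindbrain NSC and 8.16, 8.46 and 8.74 in tissue, was higher by 0.71 (SE 0.1, limma adjusted p = 9.92e-06). The groups did not overlap on this probe set, while the other Dut probe set gave -0.06. Mcm7, at 10.17, 10.28 and 10.39 in hindbrain NSC, lay below every tissue (0.54, SE 0.08, adjusted p = 1.09e-05). E2f1 (5.35, 5.55 and 6.17 in NSC) was higher in tissue by 0.66 (SE 0.13, adjusted p = 0.000463), and Prim1, the small primase subunit (7.72, 7.92 and 8.19 in NSC, 8.2, 8.53 and 8.77 in tissue), by 0.6 (SE 0.1, adjusted p = 4.31e-05). Tissue lay above NSC for Prim1 by the narrowest margin and overlapped it for E2f1. Gins1, of the active helicase, rose by 0.44 (SE 0.1, adjusted p = 0.00102) from 6.44, 6.54 and 6.84 in NSC to 6.57, 7.09 and 7.28 in tissue, and Rfc4, a clamp loader subunit, by 0.33 (SE 0.1, adjusted p = 0.0122) from 7.64, 7.72 and 7.75 to 7.68, 8.03 and 8.43. For Gins1 and Rfc4 the groups overlapped.

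Ccne1 fell by 1.16 (SE 0.13, limma adjusted p = 1.08e-06), from 6.35, 6.6 and 6.82 in NSC to 5.14, 5.39 and 5.86 in tissue. Rrm2 fell by 0.81 (SE 0.09, adjusted p = 6.12e-07), with NSC at 9.9 to 10.1 and tissue at 8.96 to 9.5. Gins2 fell by 0.7 (SE 0.06, adjusted p = 5.07e-08), with NSC at 6.75 to 6.86 and tissue at 5.92 to 6.33. Lig1 fell by 0.51 (SE 0.12, adjusted p = 0.0022), with NSC at 8.22 to 8.9 and tissue at 7.53 to 8.26. The first 3 of these had no overlap between groups, and Lig1 overlapped slightly. By the probe sets used, mean levels of Dut, E2f1 and Mcm7 were highest in tissue, and those of Rrm2, Gins2 and Ccne1 lowest, among tissue, p53 wt lines and hindbrain NSC.

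**Figure D5:**
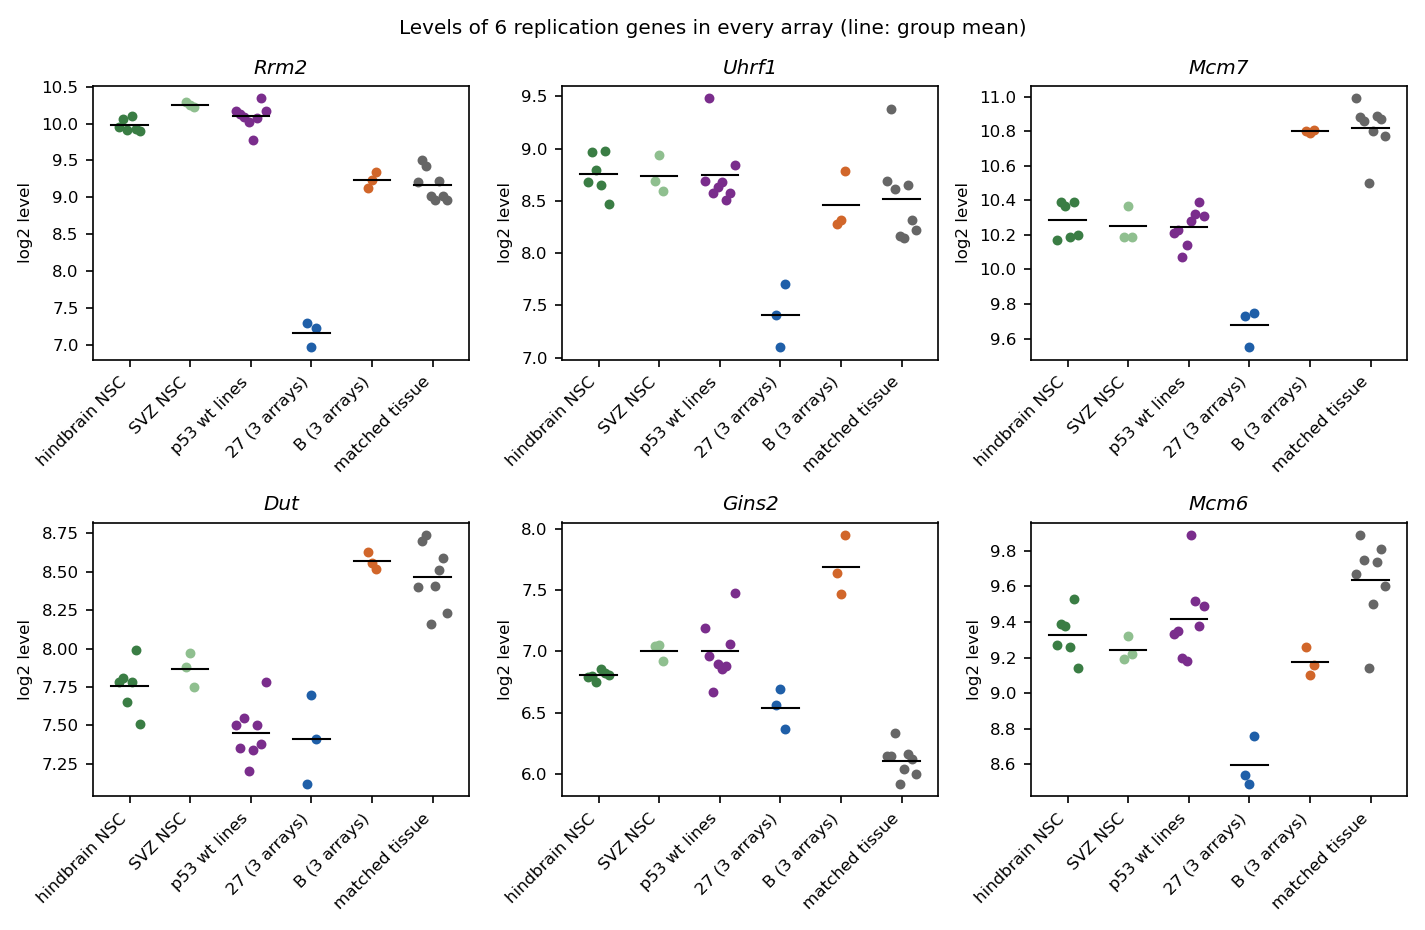
Log2 level of Rrm2, Uhrf1, Mcm7, Dut, Gins2 and Mcm6 in every array, by group, with a line at each group mean and axes that do not start at 0. Tumour 27 is lowest for Rrm2, Uhrf1, Mcm7 and Mcm6, and line 91, line 49 and line 83 stand high for Uhrf1, Mcm6 and Gins2.

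A list of 65 other replication genes was read in the same fits. Against hindbrain NSC, where 3.51% of all genes were higher and 6.06% lower, the lines had 2 higher, Gins3 (0.46, limma adjusted p = 0.0293) and the S-phase kinase Cdk2 (0.28, adjusted p = 0.0361), and 2 lower, the polymerase epsilon subunit Pole3 (-0.46, adjusted p = 0.00454) and the RNase H2 subunit Rnaseh2c (-0.42, adjusted p = 0.0219). In the p53 het cultures against the lines, 23 of the 65 were lower (35.4%, against 11.8% of all genes) and 7 higher (10.8%, against 14.5%). Lower were the polymerase subunits Pold1 (-0.97) and Pola2 (-0.71), the maintenance methyltransferase Dnmt1 (-0.77) and the checkpoint mediator Clspn (-0.71). Higher were the histone chaperone Asf1b (0.88), Mtbp (0.8), Gins4 (0.71) and Orc5 (0.6). Asf1b and Gins4 lie on chromosome 8, Mtbp on 15 and Orc5 on 5. In tumours 27 and B these chromosomes had median differences from the lines of 0.33 and 0.3, 0.54 and 0.57, and 0.13 and 0.38. Pold1, Pola2, Dnmt1 and Clspn lie on chromosomes 7, 19, 9 and 4, with medians from -0.12 to 0.0. The part of gene copy number here was not tested. Against hindbrain NSC the p53 het cultures had 16 lower (24.6%, against 13% of all genes) and 7 higher (10.8%, against 13.8%). Summed levels of the 65 were 7974 to 8009 in tumour 27, 11249 to 12903 in tumour B and 10267 to 13296 in the lines.

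Between lines and tissue, 26 of the 65 were higher in the lines (40%, against 26.6% of all genes) and 13 lower (20%, against 23.1%). Higher were the polymerase delta subunit Pold4 (1.29), the thymidine kinase Tk1 (0.93), the pocket protein Rbl1 (0.83) and Rpa1 (0.68), and lower were Rpa3 (-1.11), Orc3 (-0.66), Pole3 (-0.61) and Rad51ap1 (-0.6). Rpa1 and Rpa2, of the single-strand binding protein, were higher in the lines and Rpa3 lower. Tissue against hindbrain NSC had 16 of the 65 higher (24.6%, against 23.7%) and 24 lower (36.9%, against 28.7%). A list of 19 mitosis genes had 1 lower in the lines than in hindbrain NSC (Plk1, -0.45, limma adjusted p = 0.0388), 7 lower and 0 higher in the p53 het cultures than in the lines (Cenpf -1.47, Cenpe -1.28 and Mki67 -1.15), and 11 higher and 0 lower in the lines than in tissue (Plk1 1.02, Aurkb 0.63 and Cdc20 0.49). These are 36.8% lower, beside 11.8% of all genes, and 57.9% higher, beside 26.6%. Against hindbrain NSC, 7 were lower and 0 higher in the p53 het cultures (36.8% beside 13% of all genes), and 10 were lower and 0 higher in tissue (52.6% beside 28.7%). All 19 lay below the lines in tumour 27 (median -0.68), and 12 of 19 did in tumour B (median -0.16).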

How the data were processed

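Per the submitters' processing notes the authors made the deposited log2 values with RMA, in a table of 45101 probe sets and 31 arrays; the array labelling followed an Affymetrix protocol per the labels, and further upstream detail is not given in the sources used here. Of the probe sets, GEO's platform annotation gave 34958 a single symbol, 932 several and 9211 none, leaving 18194 genes, 9012 of them with more than 1 probe set. The 3 technical arrays of a p53 het tumour were averaged. Groups were compared with lmFit and eBayes of limma 3.58.1 in R 4.3.3, two-sided, with Benjamini-Hochberg adjustment over all genes and a threshold of 0.05; no filter was applied. The scripts were tested on simulated data.

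The fit of cultures held 19 samples in 5 groups, that of lines and tissue 16 arrays with the tumour as a block, that of tissue and NSC 17 arrays, and that of NSC regions 9. Hindbrain NSC are the mean of the cerebellar and IV ventricle group means. Lines and tissues are paired by the tumour identifier in the labels, and correlations of their deviations ran from -0.03 to 0.25. The members and lists were chosen with earlier results of these data known. Values are given for up to 6 called genes of the larger direction and 4 of the other by absolute difference, or the 3 with the smallest p where fewer than 3 were called; from the list of other replication genes up to 4 per direction by p, and from mitosis 3. Precision is limited by the number of arrays. Alternatives covered scaling, probe set choice, filters, prior, date codes, NSC reference and left-out samples, and, chosen after seeing the data, subtraction of chromosome medians. Promoters came from RefSeq, GRCm38.p6.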

Additional observations from a re-analysis of the deposited data

Results flagged for a closer look

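In groups of 8, the most extreme sample of 9 gene and group combinations, of 72 examined, stood apart from its nearest neighbour by 0.53 to 0.66 of the group's range, above Dixon's critical value for 8 samples. Chance flags about 1 in 20 groups if they are independent, which genes of 1 sample are not: tissue 9, lowest for 25 of the 36 genes, gave 3 of the 9. Among the lines, Mcm5 was 9.93 in line 83 (next 9.36), Mcm6 was 9.89 in line 49 (next 9.52), Uhrf1 was 9.48 in line 91 (next 8.84) and Pola1 was 7.53 in line 83 (next 7.07), each the highest, and Ccne1 was 5.64 in line 77, the lowest (next 6.08). Among the tissues, Uhrf1 was 9.38 in tissue 91, the highest (next 8.69), and tissue 9 was lowest for Mcm7 at 10.5 (next 10.77), Pole at 6.23 (next 6.68) and Slbp at 8.5 (next 8.69).

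Neighbouring genes were read beside these values, up to 15 on each side with a mean level above 3.5. Around Mcm6 in line 49, 7 of 7 neighbours were highest of the 8 lines, with a median difference of 0.69 from the other 7. Around Uhrf1, 9 of 13 neighbours were highest in line 91 (median 0.43) and 7 of 13 in tissue 91 (median 0.26), and the other Uhrf1 probe set was also highest there, at 8.09 and 7.65. Around Mcm5 in line 83, 3 of 5 were highest (median 0.24). Around Pola1 in line 83, 1 of 3 was highest and 2 were lowest (median -0.34), around Ccne1 in line 77, 1 of 5 was lowest (median -0.02), and around Mcm7, Pole and Slbp in tissue 9, 1 of 11, 1 of 11 and 0 of 13 were lowest. Gene copy number was not measured, and its part in these values was not tested.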

How the results depend on the processing

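With all probe sets kept, each gene was read from its probe set with the smallest adjusted p. Read in that way, no gene given by the naming rule changed direction in the comparison it was named for under the alternatives that were run. Dut, Gins2, Rfc3 and Mcm7, described outside that rule for the p53 het cultures, did: against the lines they were -0.039, -0.461, -0.328 and -0.567 with tumour 27 alone and 1.121, 0.686, 0.87 and 0.559 with tumour B alone. Medians over the 36 genes changed sign too: those of the p53 het cultures turned positive without tumour 27, that of the lines against hindbrain NSC was -0.027 with only the lines whose date code the tissue shares, that of lines against tissue was -0.051 in the 4 pairs of 1 date code, and that of tissue against hindbrain NSC was -0.001 with all probe sets kept. Summary values that left the 1.5-fold range, or the spread between samples, were these. For the lines against hindbrain NSC (1 higher, 0 lower), the higher count was 2 with chromosome medians subtracted or with all 3 NSC regions as reference, and 0 with a required difference of at least 1, the date code as a random block, subventricular NSC as reference or only the lines whose date code the tissue shares. The lower count was 1 with the mean of all probe sets, all probe sets kept, only genes above the median level, either other NSC reference or those 4 lines, and left-out samples gave 0 to 1 for both. For the p53 het cultures against hindbrain NSC (0 higher, 5 lower), the higher count was 2 with chromosome medians subtracted and 1 with all probe sets, with genes above the median level or with technical replicate 1 only. The lower count was 1 with a difference of at least 1 and 3 with only the groups compared. Left-out samples gave 0 to 11 higher, 1 to 20 lower and a median of -0.648 to 0.372, the ends being the fits without tumour B and without tumour 27. Against the lines (0 higher, 8 lower), the higher count was 1 with chromosome medians subtracted and 2 with genes above the median level, and the lower count 5 with the mean of probe sets, 1 with a difference of at least 1, and 4 with only the groups compared or only the lines of the shared date code. Left-out samples gave 0 to 10 higher and 1 to 23 lower, with a median of -0.674 to 0.223. For lines against tissue (11 higher, 8 lower), the lower count was 4 with arrays centred on the median, 1 with a difference of at least 1 and 3 in the 4 pairs of different date codes, whose median was 0.214. The higher count was 7 with arrays centred on the 75th percentile, 0 with a difference of at least 1 and 3 in the 4 pairs of 1 date code, and left-out pairs gave 6 to 12 higher and 5 to 8 lower. Without the replicate block 11 were higher and 7 lower. For tissue against hindbrain NSC (11 higher, 8 lower), the lower count was 5 with arrays centred on the 75th percentile and 1 with a difference of at least 1, and the higher count 0 with a difference of at least 1 and 7 with subventricular NSC as reference. The NSC regions gave 0 genes under every alternative, the replicate block included. For the replicate numbers of the NSC, 7 of 9 same-numbered pairs had deviations that correlated at 0.29 to 0.49, all 6 pairs with the subventricular zone among them, while replicates 2 and 3 of the IV ventricle and cerebellum gave -0.13 and -0.05. Replicates 1 and 3 also share a date code across regions. With the replicate block 1.08% of all genes differed between regions, and with the date code as a block 2.62%, beside 0.819%. The causes of these changes were not tested, beyond the smaller number of samples in the left-out and subset fits.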
